A study of Mus musculus with 35 samples.

Results

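The livers of mice that had breathed 40 ppm styrene were compared directly with the livers of mice that had breathed 20 ppm styrene, so that the change over the step between these neighbouring concentrations was measured without going through the air controls. The comparison used all 5 arrays of 40 ppm and all 5 arrays of 20 ppm, 10 of the 35 arrays of the study, and every one of the 45037 probe sets that is not an array control. All animals were adult male wild-type C57Bl/6 mice, each placed alone in a wire-mesh cage for a single exposure of 6 h to styrene vapour or to air, with free access to food and water in housing with 12 h of light, and killed the morning after exposure. The 7 groups of 5 mice received air, 1, 5, 10, 20, 40 or 120 ppm. Total liver RNA of each mouse was labelled by a 3′ in vitro transcription kit and hybridised to 1 Affymetrix expression array. The labels call the arrays of a group biological replicates, so the p-values below set differences against the spread between mice. In the main fit this spread was pooled over all 7 groups. Values are levels on a log2 scale, where a difference of 1.00 is a doubling of signal, and every difference is 40 ppm minus 20 ppm. In whole liver, fewer cells of a type and less RNA per cell cannot be told apart.

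Styrene is oxidised in the liver and lung by cytochrome P450 enzymes, chiefly CYP2E1 and CYP2F2 in mice, to styrene oxide, which epoxide hydrolase and glutathione transferases then remove. Liver transcripts are also set by feeding and by the circadian clock: BMAL1 and its partner CLOCK or NPAS2 drive the Per, Cry and Dbp genes, and SREBP2 drives the genes of cholesterol synthesis. Chaperones of the endoplasmic reticulum (ER), where the liver folds the plasma proteins it secretes, follow the load of unfolded protein through ATF6 and XBP1.

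The arrays carried the labelled tissue. The 9 hepatocyte markers measured, among them albumin and transthyretin, had a median level of 13.43 at 40 ppm and 13.48 at 20 ppm. None of them passed the test, and 1 had an unadjusted p under 0.05 (12.4% of all genes did). On the first principal component of all 35 arrays, which held 27.9% of the variance, the 40 ppm arrays lay together between 31.6 and 40.1, whereas the 20 ppm arrays were spread between -16.5 and 20.7. Mice of 20 ppm were the more variable: among probe sets with a mean level above 6 the median SD was 0.122 at 40 ppm and 0.197 at 20 ppm, and 20.7% of these probe sets had the larger SD at 40 ppm. The 23 control probe sets for nonspecific binding, which match no mouse gene, averaged between 2.68 and 2.75 on the 40 ppm arrays and between 2.79 and 2.89 on the 20 ppm arrays, with no overlap. Tested apart from the gene probe sets, 5 of the 104 controls passed, 4 of them nonspecific controls, and all 5 were lower at 40 ppm. Their part in the results on dim genes was not tested. Array medians were 3.57 ± 0.0209 at 40 ppm and 3.53 ± 0.0279 at 20 ppm (SD, n = 5 each), and the difference did not hold after adjustment over 3 array measures (exact two-sided permutation test, p = 0.0238, adjusted p = 0.0714; the smallest p that 252 divisions can give is 0.00794).

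**Figure D1:**
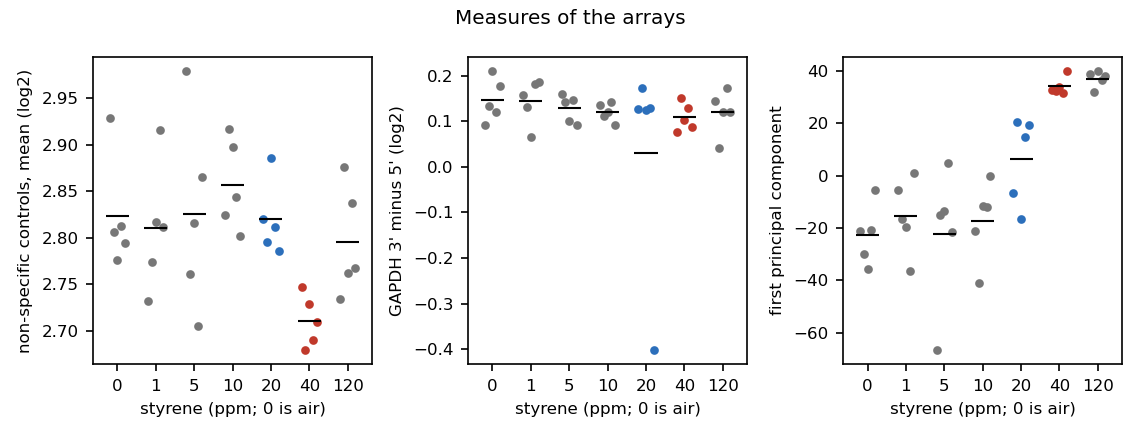
Mean level of the nonspecific-binding controls (log2), GAPDH 3′ minus 5′ probe signal (log2) and first principal component for each array (points) in groups ordered by styrene concentration, with a line at each group mean; red marks 40 ppm and blue 20 ppm. The 40 ppm arrays lie between 2.68 and 2.75 on the controls and between 31.6 and 40.1 on the component, and 1 array of 20 ppm lies at -0.402 on the GAPDH measure.

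The number in the sample title rises with concentration, and what it stands for is not given in the sources used here. Within groups 1047 probe sets (2.32%) followed the order of these numbers, fitted as replicate 1 to 5. Individual mice stood apart, and results that rest on them are given with and without them. Replicate 5 of 20 ppm had a GAPDH 3′ minus 5′ signal of -0.402, against 0.125 to 0.172 in the other mice of 20 ppm. Replicate 2 of 40 ppm had high transcripts of ER and heat shock chaperones, described below. The GAPDH measure averaged 0.110 at 40 ppm and 0.0299 at 20 ppm (exact permutation test, p = 0.897, adjusted p = 0.897), and the same measure on beta-actin averaged 0.706 at 40 ppm and 0.724 at 20 ppm (exact permutation test, p = 0.690, adjusted p = 0.897).

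Between 40 and 20 ppm, 168 probe sets passed (0.373% of those tested) in a limma fit over all 35 arrays with Benjamini-Hochberg adjustment over all probe sets, at an adjusted p under 0.05. Of these, 122 were higher (0.271%) and 46 lower (0.102%) at 40 ppm, and 64 differed by a fold of at least 1.5; 6178 probe sets, or 13.7%, had an unadjusted p under 0.05. Taking for each of 17097 genes its probe set with the highest mean, 58 genes passed (0.339%), 37 higher and 21 lower. The split moved with the scaling of the arrays. With array medians set to 0, 47 were higher and 70 lower, and after a second quantile normalization 26 were higher and 35 lower. All 168 kept their direction under both. For the medians this was fixed in advance: every difference shifts by 0.0428, and the smallest absolute difference among the 168 was 0.342. With array medians set to 0, all 21 lower genes passed and 11 of the 37 higher ones, Pdk1 (adjusted p = 0.071) and the brighter Atp6v0d2 probe set (adjusted p = 0.0599) not among them. The count rested on single mice, with 584 calls without replicate 5 of 20 ppm and 30 without replicate 1 of 20 ppm; it was 10 when only the 10 arrays compared entered the fit.

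The genes that passed were mostly dim on these arrays. The median level was 3.69 for the higher probe sets and 3.32 for the lower ones, beside 3.52 for all probe sets, and 9 of the 10181 probe sets with a mean level above 6 passed. Of the 21 lower genes 19, and of the 37 higher genes 18, had a mean level under 4. Every one of the 22 probe sets that passed in all 10 fits with a mouse left out had a mean level of 3.86 or less, 12 of them higher and 10 lower at 40 ppm. Among the 58 genes, 33 had several probe sets, and in 14 of these the probe sets differed in sign; more than 1 probe set passed for Atp6v0d2 and Pdk1 only.

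**Figure D2:**
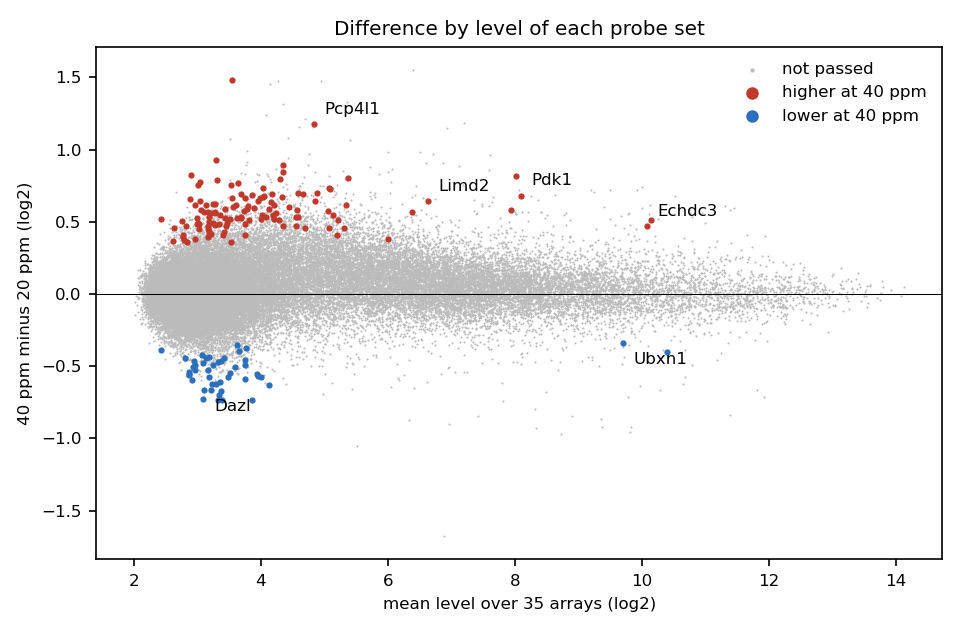
Difference between 40 and 20 ppm (log2) of each of the 45037 probe sets against its mean level over 35 arrays (log2); red points passed as higher and blue points as lower at 40 ppm, and grey points did not pass. Coloured points crowd at levels under 6, and Pdk1, Limd2, Echdc3 and Ubxn1 are the named exceptions.

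Atp6v0d2, which encodes the d2 subunit in the membrane sector of the vacuolar proton pump (V-ATPase) that acidifies lysosomes, gave the smallest adjusted p of all probe sets. One of its probe sets read 5.23, 4.84, 5.06, 3.93 and 5.00 in the mice of 40 ppm, against 3.44, 3.53, 2.86, 3.55 and 3.27 in the mice of 20 ppm. All mice of 40 ppm lay above all mice of 20 ppm, although replicate 4 of 40 ppm was well under its group. The difference was 1.48 ± 0.192 (SE; adjusted p = 0.000276) and held in all 10 fits with a mouse left out, with adjusted p at most 0.00192, and with only the 10 arrays compared (adjusted p = 0.0435). The brighter probe set read 6.56, 6.15, 6.29, 5.61 and 6.63 at 40 ppm, against 5.67, 5.64, 4.93, 5.79 and 5.18 at 20 ppm, where the groups overlapped through replicate 4 of 40 ppm. Its difference was 0.80 ± 0.187 (1.75-fold, adjusted p = 0.0445) and passed in 1 of the 10 fits with a mouse left out, between 0.68 and 0.96. Across the study the brighter probe set averaged 4.87 in air, 4.94 at 1 ppm, 4.73 at 5 ppm, 4.75 at 10 ppm, 5.44 at 20 ppm, 6.25 at 40 ppm and 6.64 at 120 ppm. None of the other 11 V-ATPase subunits measured passed, and their differences lay between -0.10 and 0.13. Atp6v0d1, the d subunit found in most tissues, averaged 9.99 ± 0.037 at 40 ppm and 10.00 ± 0.202 at 20 ppm (SD, n = 5 each).

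Pdk1, a mitochondrial kinase that phosphorylates and inhibits the pyruvate dehydrogenase complex and that hypoxia-inducible factor is known to induce, was the brightest of the genes that passed with a fold of at least 1.5. Its levels were 9.15, 8.66, 8.89, 8.78 and 8.84 at 40 ppm, against 7.92, 8.83, 7.74, 8.28 and 8.14 at 20 ppm. Only replicate 2 of 20 ppm reached into the range of 40 ppm. The difference was 0.68 ± 0.162 (SE; 1.60-fold, adjusted p = 0.0497), the second probe set gave 0.58 ± 0.136 (adjusted p = 0.0453), and the third gave 0.59 ± 0.227 (adjusted p = 0.232) with levels of 6.36 to 6.75 at 40 ppm and 5.85 to 6.00 at 20 ppm. The call lay at the threshold: it passed in 2 of 10 fits with a mouse left out, among them the fit without replicate 2 of 20 ppm (difference 0.84, adjusted p = 0.0116), and the difference was lowest without replicate 3 of 20 ppm at 0.57 (adjusted p = 0.154). Of the other 10 members of the pyruvate dehydrogenase list none passed. With Pdk1 counted, 2 were higher and 2 lower at an unadjusted p under 0.05 (7.83% and 4.55% of all genes were). Pdhb, the beta subunit of the first enzyme of the complex, averaged 10.07 ± 0.101 at 40 ppm and 10.27 ± 0.046 at 20 ppm (difference -0.20 ± 0.071, adjusted p = 0.209). Every mouse of 40 ppm lay below every mouse of 20 ppm, as in 1.1% of all genes. The other 14 measured hypoxia response genes did not pass, and the median of the list of 15 was 0.08.

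**Figure D3:**
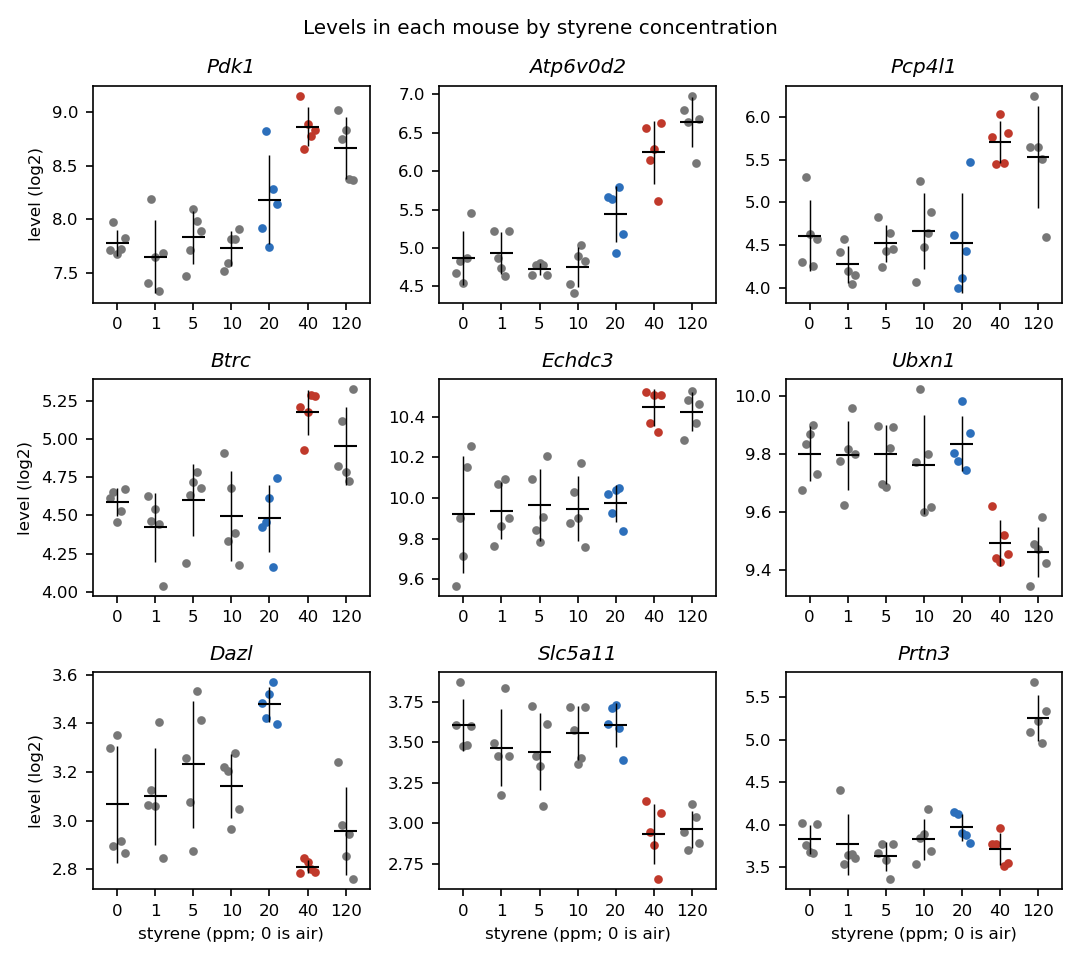
Level (log2) of 9 genes in each mouse (points) by styrene concentration, with the group mean (horizontal line) and SD (vertical line, n = 5); red marks 40 ppm and blue 20 ppm. Pdk1, Atp6v0d2, Pcp4l1, Btrc and Echdc3 have their 40 ppm mean above the mean of every lower concentration, Ubxn1, Dazl and Slc5a11 have it below, and Prtn3 stands at 5.26 at 120 ppm.

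Among the other rises, Pcp4l1, a small IQ-motif protein first known from brain, was the largest among genes that passed at their brightest probe set. It read 5.77, 5.44, 6.03, 5.47 and 5.82 at 40 ppm, against 4.62, 4.00, 4.11, 4.43 and 5.48 at 20 ppm. Replicate 5 of 20 ppm overlapped with 40 ppm and the others lay well below. The rise was 1.18 ± 0.246 (SE; 2.26-fold, adjusted p = 0.0279), and it passed in 3 of 10 fits with a mouse left out.

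Btrc, the substrate-binding F-box protein of the ubiquitin ligase that marks beta-catenin and IκB for degradation, rose by 0.69 ± 0.135 (adjusted p = 0.0173), with 4.93 to 5.29 at 40 ppm and 4.16 to 4.75 at 20 ppm. Bcl9, a coactivator of beta-catenin, rose by 0.67 ± 0.125 (adjusted p = 0.0124), with 3.71 to 4.18 at 40 ppm and 3.16 to 3.63 at 20 ppm. Neither gene's groups overlapped, and they passed in 8 and 9 of 10 fits with a mouse left out. A pair of genes acts on the small GTPase Rap1: Rap1gap, which switches it off, rose by 0.80 ± 0.181 (adjusted p = 0.0394), and Rapgef3, a cAMP-activated exchange factor that switches it on, rose by 0.59 ± 0.124 (adjusted p = 0.0287). Rap1gap read 4.69 to 5.31 at 40 ppm and 3.90 to 4.71 at 20 ppm, and Rapgef3 read 3.61 to 4.08 at 40 ppm and 3.23 to 3.64 at 20 ppm, so both overlapped by 1 mouse of 20 ppm. Rapgef3 had 3 probe sets whose differences ran between -0.30 and 0.59. Cdkn1c, an imprinted inhibitor of cyclin-dependent kinases, averaged 4.96 ± 0.318 at 40 ppm and 4.29 ± 0.088 at 20 ppm with no overlap (SD, n = 5 each) and rose by 0.67 ± 0.145 (adjusted p = 0.0332).

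The other rises named by size were A930033H14Rik (0.89, adjusted p = 0.0332), the sperm calcium channel subunit Catsperd (0.79, adjusted p = 0.0253), the cationic amino acid transporter family member Slc7a4 (0.70, adjusted p = 0.0378), and Kansl1, a scaffold of a histone acetyltransferase complex (0.68, adjusted p = 0.0416). They also included the LIM domain gene Limd2 (0.64, adjusted p = 0.0285), the BBSome subunit Bbs2 of cilia (0.62, adjusted p = 0.0394) and Kank3, an ankyrin repeat protein (0.58, adjusted p = 0.0378). Named for a small p, Tnfrsf19, a receptor of the tumour necrosis factor family, and the predicted gene Gm7854, rose by 0.52 ± 0.104 (adjusted p = 0.0226) and 0.51 ± 0.092 (adjusted p = 0.00955). Of these 9, the groups did not overlap in Catsperd, Slc7a4, Kansl1 and Kank3, and Catsperd at 10 ppm, with a mean of 3.41, stood above its 20 ppm mean of 2.81.

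Of the 9 passing probe sets with a mean level above 6, 3 differed by a fold of at least 1.5, 1 each of Pdk1 and Limd2 and 1 with no single symbol, and the other 6 by less. Echdc3, a mitochondrial protein of the enoyl-CoA hydratase family, read 10.52, 10.37, 10.51, 10.33 and 10.51 at 40 ppm, against 10.02, 9.93, 10.04, 10.05 and 9.84 at 20 ppm. The groups were fully separate, and the difference was 0.47 ± 0.105 (1.39-fold, adjusted p = 0.0378). Ubxn1, a cofactor of the segregase p97 that handles ubiquitinated proteins, read 9.62, 9.44, 9.43, 9.52 and 9.46 at 40 ppm, against 9.80, 9.78, 9.98, 9.74 and 9.87 at 20 ppm. Its groups were also separate, with a difference of -0.34 ± 0.078 (SE; 1.27-fold lower, adjusted p = 0.0411). The levels of both genes at 10 ppm and below stayed near those of 20 ppm, with Echdc3 means of 9.92 to 9.97 and Ubxn1 means of 9.76 to 9.80 in air, 1, 5 and 10 ppm. At 120 ppm they averaged 10.42 and 9.46, close to 10.45 and 9.49 at 40 ppm. They passed in 3 and 2 of 10 fits with a mouse left out. A probe set of the transcription coactivator Edf1 that is not its brightest was the other bright one to fall (difference -0.40, adjusted p = 0.0173); Echdc3, Ubxn1 and Edf1 were chosen for naming after their values were seen.

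Of the 21 genes that passed as lower, Ubxn1 alone had a mean level above 6, and 19 were under 4. Dazl, an RNA-binding protein of germ cells, had the smallest p among the genes that fell. It read 2.78, 2.85, 2.83, 2.80 and 2.79 at 40 ppm, against 3.48, 3.42, 3.52, 3.57 and 3.40 at 20 ppm, fully separate. The difference was -0.67 ± 0.112 (SE; 1.59-fold lower, adjusted p = 0.00671), but its mean of 3.07 to 3.23 in air, 1, 5 and 10 ppm lay between the values of both groups. Slc5a11, a sodium-coupled inositol transporter, read 3.13, 2.95, 2.87, 2.65 and 3.07 at 40 ppm, against 3.61, 3.71, 3.73, 3.59 and 3.39 at 20 ppm. It was lower in every mouse of 40 ppm than in any of 20 ppm, with a difference of -0.67 ± 0.115 (adjusted p = 0.00706), and averages were 3.44 to 3.61 in air, 1, 5 and 10 ppm and 2.96 at 120 ppm. Dazl and Slc5a11 passed in all 10 fits with a mouse left out. In limma with only the 10 arrays compared, Dazl passed (adjusted p = 0.0162) and Slc5a11 did not (adjusted p = 0.0549).

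The other genes named among the falls included Sost, the bone-derived Wnt inhibitor sclerostin (-0.74, adjusted p = 0.0378), the platelet-activating factor receptor Ptafr (-0.73, adjusted p = 0.0453), the GABA-synthesising enzyme Gad2 (-0.58, adjusted p = 0.0448), Stoml3 of sensory neurons (-0.57, adjusted p = 0.044) and the renal organic anion transporter Slc22a6 (-0.53, adjusted p = 0.0325). A variable segment of the immunoglobulin kappa chain also fell (-0.74, adjusted p = 0.0124), while none of the 5 B cell markers measured passed and their median difference was 0.16. The protein kinase A inhibitor Pkia (-0.55, adjusted p = 0.0173), the ciliary genes Cfap52 (-0.49, adjusted p = 0.0279) and Saxo2 (-0.46, adjusted p = 0.0378), the myotubularin-related Mtmr11 (-0.45, adjusted p = 0.0073), Wdr27 (-0.47, adjusted p = 0.00819), the zinc finger gene Zfp873 (-0.44, adjusted p = 0.0337) and 4930470H14Rik (-0.62, adjusted p = 0.0378) complete the named falls. Their levels at 40 ppm lay between 2.15 and 3.65, and at 20 ppm between 2.31 and 4.30. The nonspecific controls that passed as lower averaged 2.22 to 2.53 at 40 ppm and 2.34 to 2.68 at 20 ppm. Probe sets at or below the median level had a median difference of 0.00854, and 51 of them passed as higher and 31 as lower. A link between the controls and these falls was not tested. Sost, Ptafr, the immunoglobulin segment, Pkia and Slc22a6 each had another probe set whose difference lay between 0.03 and 0.15, with adjusted p of 0.525 or more.

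Across the study, the 40 ppm mean of all 58 genes lay beyond the means of air, 1, 5, 10 and 20 ppm in the direction of the change. At 120 ppm the mean was beyond that of 20 ppm in all 58, but less far than at 40 ppm in 29 of the 37 higher and 20 of the 21 lower genes; since the 58 were chosen for a large difference at 40 ppm, this order is a description. The groups did not overlap in 25 of the higher and 13 of the lower genes. Of all genes, 2.07% had every mouse of 40 ppm above every mouse of 20 ppm and 1.1% had every one below. The 58 were chosen on the same arrays, so this separation is a description too. From the same fit, 6586 probe sets passed for 40 ppm against air and 466 for 20 ppm against air, comparisons that share the air arrays, and 11 passed for 120 ppm against 40 ppm.

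Whether the step between 20 and 40 ppm differed from its neighbours was tested directly. Against the step between 10 and 20 ppm no probe set passed in limma (2420, or 5.37%, at an unadjusted p under 0.05; smallest adjusted p 0.0526). Against the step between 40 and 120 ppm 4 passed (0.00888%). Prtn3, proteinase 3 of neutrophil granules, was the one among them at its gene's brightest probe set: it averaged 5.26 at 120 ppm, 3.71 at 40 ppm and 3.97 at 20 ppm, so that its change over the upper step was 1.54 and over the lower step -0.26 (adjusted p for the difference of steps 0.000956). The neutrophil markers as a list had a median level of 3.45 at 120 ppm, 3.38 at 40 ppm and 3.36 at 20 ppm. Also past the threshold were dim probe sets of Nipbl, Dpysl2 and Ntrk2, named after their values were seen, whose difference at 40 ppm shrank again at 120 ppm: Nipbl averaged 3.31 at 120 ppm, 3.68 at 40 ppm and 2.92 at 20 ppm. Their genes' brightest probe sets did not pass, with differences between 40 and 20 ppm of 0.29 for Nipbl, 0.04 for Dpysl2 and -0.10 for Ntrk2 (adjusted p = 0.415, 0.898 and 0.815), and another Ntrk2 probe set was at 0.21.

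Groups of genes were described through 44 pathway lists and 12 cell type lists holding 935 genes, of which 817 were measured. Only Atp6v0d2 and Pdk1 among them passed, and 53 of the 56 lists held no gene that passed; 94 of the 817 (11.5%) had an unadjusted p under 0.05, beside 2116 of all 17097 genes (12.4%). The median difference over all genes was 0.03, with 58.7% above 0, and list medians are to be read against it.

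**Figure D4:**
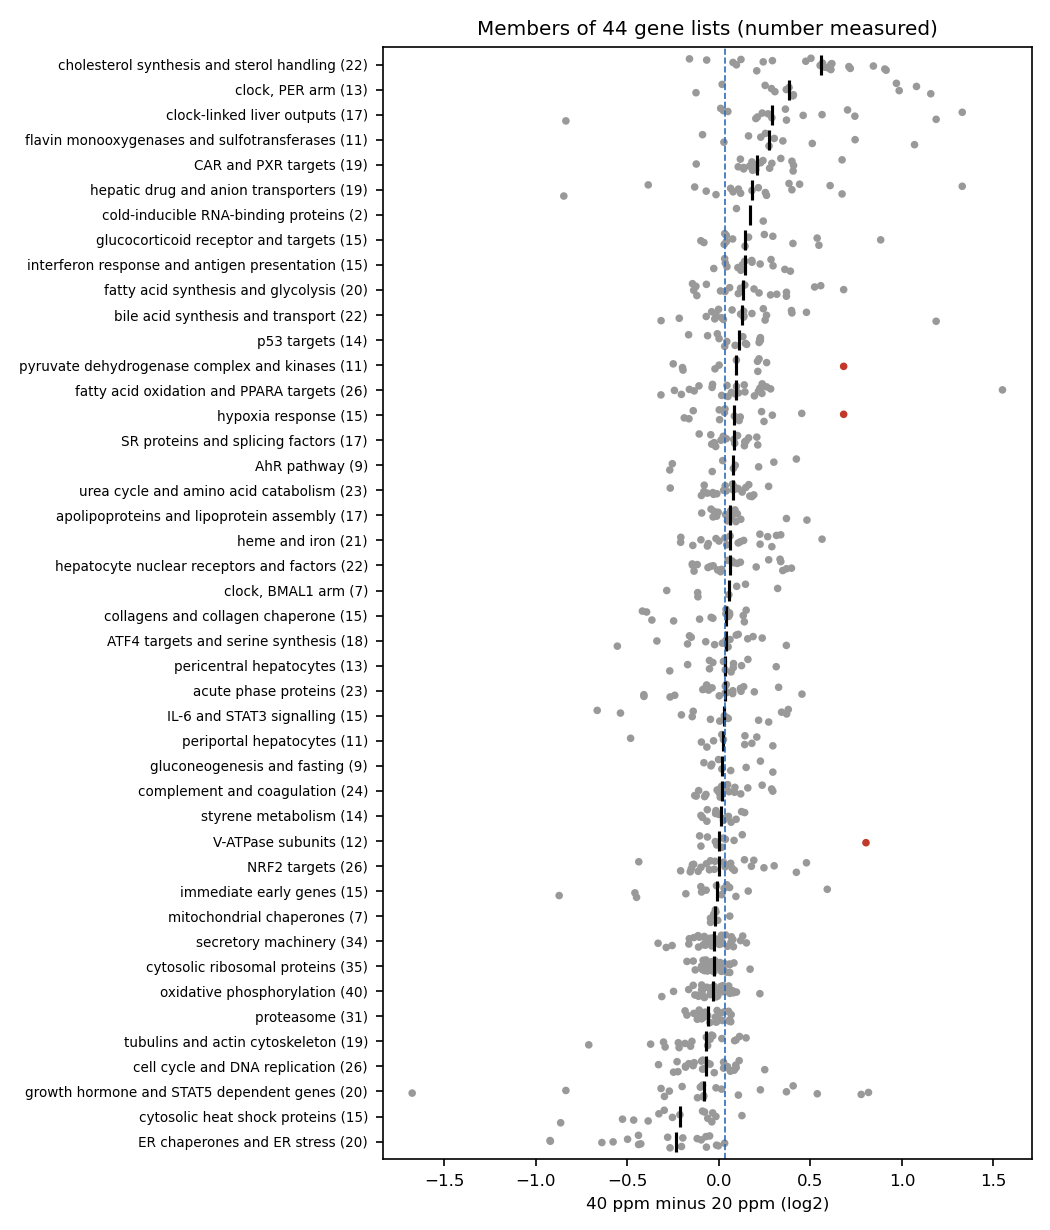
Difference between 40 and 20 ppm (log2) of each measured member (points) of the 44 pathway lists, with the list median (black bar), the number measured in brackets and the median of all genes as a dashed line at 0.03; red points passed. Cholesterol synthesis has the highest median, 0.56, and ER chaperones the lowest, -0.24.

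Cholesterol synthesis and sterol handling had the highest list median, 0.56, with 20 of 22 measured genes above 0. None passed, and 10 were higher at an unadjusted p under 0.05 (7.83% of all genes were). In 5 every mouse of 40 ppm lay above every mouse of 20 ppm (2.07% of all genes did so). The 20 ppm group had the lowest median level of the list in the study, 9.37. Groups with less styrene or none ranged from 9.47 to 9.68, the 40 ppm group stood at 9.84 and the 120 ppm group at 9.78. The difference thus joins a low level at 20 ppm to a smaller excess of 40 ppm over the other groups. Sqle, the squalene monooxygenase that catalyses the first oxygenation of the pathway, read 10.16, 9.76, 9.75, 9.71 and 9.86 at 40 ppm, against 9.34, 9.51, 9.05, 9.31 and 8.48 at 20 ppm. The groups were separate, with replicate 5 of 20 ppm lowest, and the difference was 0.71 ± 0.239 (SE; 1.64-fold, adjusted p = 0.166). Fdft1, squalene synthase, read 11.68, 11.03, 11.14, 11.09 and 11.33 at 40 ppm, against 10.63, 10.84, 10.89, 10.76 and 10.25 at 20 ppm. The difference was 0.58 ± 0.192 (adjusted p = 0.159), and again replicate 5 was lowest at 20 ppm and replicate 1 highest at 40 ppm. Msmo1 (0.61, adjusted p = 0.233) and Cyp51 (0.55, adjusted p = 0.251), which remove methyl groups from lanosterol and its products, and the sterol carrier Stard4 (0.50, adjusted p = 0.186) were the others without overlap. Cyp51 in replicate 5 of 20 ppm was 9.03, against 9.68 to 9.72 in its group, and without that mouse its difference was 0.42 (adjusted p = 0.369).

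Some members differed little, both in synthesis and outside it. The synthesis enzymes Ebp and Tm7sf2 differed by 0.08 and 0.10. Insig2, which holds SREBP in the ER, differed by -0.07, and Abcg8, a sterol exporter, by -0.16. Mvd, mevalonate decarboxylase, ranged between 7.39 and 8.38 at 40 ppm and between 4.94 and 7.64 at 20 ppm. Its 20 ppm mice were far more spread, and the difference of 0.91 had an SE of 0.526 (adjusted p = 0.457) and was 0.44 without replicate 5 of 20 ppm. The mean level of the whole list was 9.24 to 9.74 in the mice of 40 ppm and 8.42 to 9.32 in those of 20 ppm, and without replicate 5 of 20 ppm the list median was 0.43. The letters TCACNCCAC, a sterol regulatory element bound by SREBP, were found on either strand in 1 of the 18 matched promoters of the list, that of Hmgcs1, and in 1.24% of 32851 promoters.

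The PER arm list of the clock holds genes that BMAL1 drives, among them repressors that turn it off and rhythmic outputs such as Dbp. Its median was 0.38 with 12 of 13 above 0, and none passed. Of the 13, 3 were higher at an unadjusted p under 0.05 (7.83% of all genes were). Within groups 7 of the 13 followed the replicate number, beside 2.32% of all probe sets. With the title number as covariate the list median was 0.01. Ciart, a repressor of BMAL1 and CLOCK, read 6.21, 4.91, 7.05, 6.30 and 6.19 at 40 ppm, against 3.28, 6.12, 4.90, 5.06 and 5.91 at 20 ppm. Replicate 1 of 20 ppm lay at the level of the lower concentrations. Replicates 2, 4 and 5 of 20 ppm lay within the range of 40 ppm, and replicate 3 just below it. Ciart averaged 3.25 to 3.52 in air, 1, 5 and 10 ppm and 6.25 at 120 ppm. The difference was 1.08 ± 0.354 (adjusted p = 0.157). Per3 read 5.92 to 6.82 at 40 ppm and 3.70 to 6.00 at 20 ppm (1.16 ± 0.391, adjusted p = 0.168), and Usp2, a rhythmic ubiquitin protease, read 7.69 to 8.99 at 40 ppm and 6.13 to 8.51 at 20 ppm (0.97 ± 0.305, adjusted p = 0.137). Usp2 passed in 1 of 10 fits with a mouse left out, at 1.30 without replicate 5 of 20 ppm (adjusted p = 0.0211), and was lowest at 0.70 without replicate 1 of 20 ppm (adjusted p = 0.38). Without replicate 1 of 20 ppm Ciart differed by 0.64 (adjusted p = 0.438), Dbp by 0.32 and the list median was 0.26. Dbp, a rhythmic transcription factor of liver, ranged between 7.30 and 8.48 at 40 ppm and between 4.28 and 8.77 at 20 ppm, the lowest being replicate 1. Of the other genes of the loop, Cry1 differed by -0.12 (adjusted p = 0.857), and the 7 genes of the BMAL1 arm had a median of 0.05, with Arntl, which encodes BMAL1, at 5.51 ± 0.38 at 40 ppm and 5.62 ± 0.71 at 20 ppm (SD, n = 5 each).

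The promoter of Ciart is shown because it carries 3 copies of the E-box that BMAL1 and CLOCK bind. The window of 300 bases around the annotated start is chr3:95882179-95882478 on the minus strand (RefSeq, GRCm38.p6), and capitals mark CACGTG.
Ciart: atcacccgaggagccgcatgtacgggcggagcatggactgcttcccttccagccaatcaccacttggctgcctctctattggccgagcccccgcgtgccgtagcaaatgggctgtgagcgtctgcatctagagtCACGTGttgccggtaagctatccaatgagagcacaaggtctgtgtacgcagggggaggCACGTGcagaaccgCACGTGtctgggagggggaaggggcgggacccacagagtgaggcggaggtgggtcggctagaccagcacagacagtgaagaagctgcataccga
The same letters, which read alike on both strands, were in the promoters of 5 of the 11 matched PER arm genes (Bhlhe41, Ciart, Cry1, Per1 and Tef) and in 7.15% of all 32851. The median difference was 0.37 in the 5 with a match and 0.68 in the 6 without.

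**Figure D5:**
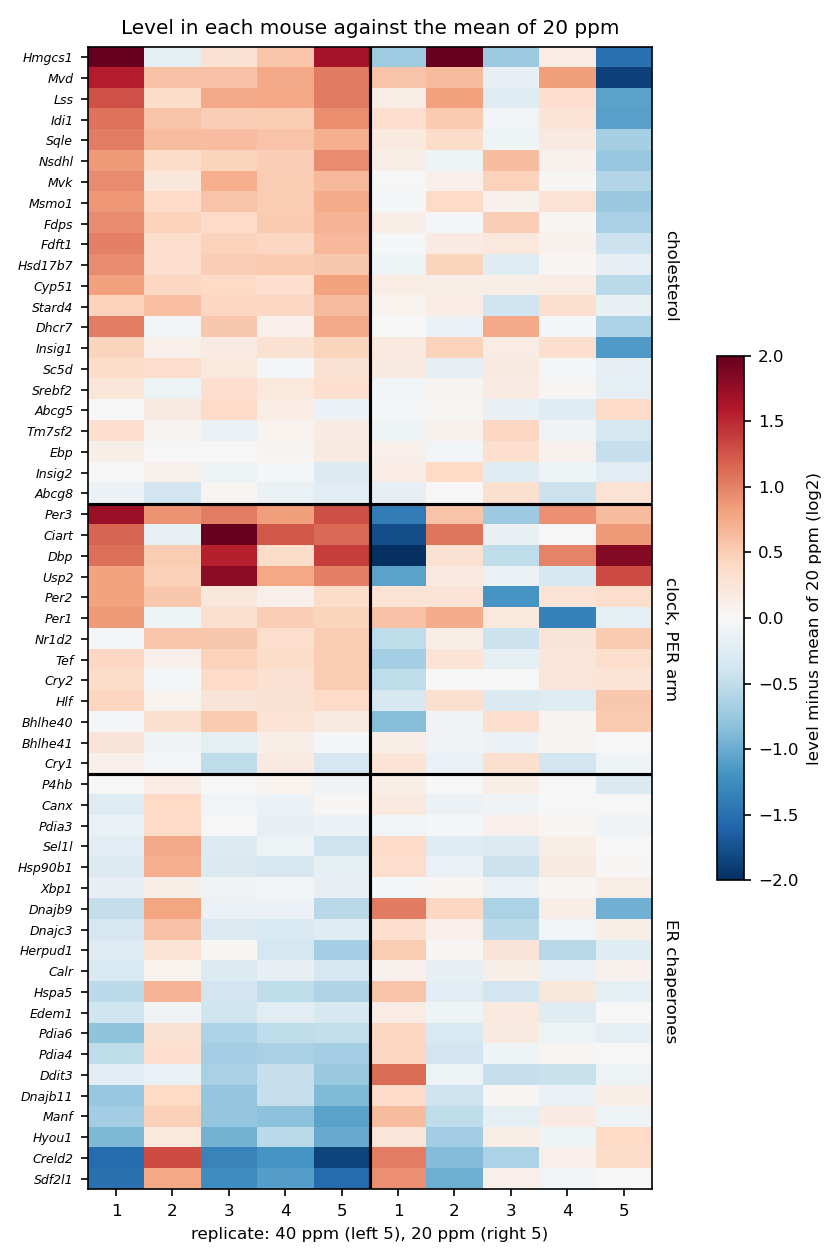
Level of each measured gene (rows) of the cholesterol, PER arm and ER chaperone lists in each mouse of 40 ppm (left 5 columns) and 20 ppm (right 5 columns), minus the gene's mean at 20 ppm (log2; colours saturate at -2 and 2). Replicate 2 of 40 ppm is mostly red in the ER block where the other mice of 40 ppm are mostly blue, and replicate 5 of 20 ppm is mostly blue in the cholesterol block.

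ER chaperones and ER stress had the lowest list median, -0.24, with 19 of 20 measured genes below 0. None passed, and 9 were lower at an unadjusted p under 0.05 (4.55% of all genes were). The list's mean level was 9.52, 10.46, 9.57, 9.63 and 9.43 in the mice of 40 ppm, against 10.47, 9.80, 9.90, 9.99 and 9.99 in those of 20 ppm. Replicate 2 of 40 ppm was close to the highest mouse of 20 ppm, and the other mice of 40 ppm lay below all mice of 20 ppm. Sdf2l1, an ER chaperone cofactor, read 7.74, 10.02, 7.99, 8.13 and 7.70 at 40 ppm, against 10.15, 8.26, 9.34, 9.18 and 9.25 at 20 ppm. With all mice the difference was -0.92 ± 0.323 (adjusted p = 0.188), without replicate 2 of 40 ppm it was -1.35 (adjusted p = 0.0192), and without replicate 1 of 20 ppm, the highest of that group, it was -0.69 (adjusted p = 0.435). The list median was -0.33 without replicate 2 of 40 ppm and -0.14 without replicate 1 of 20 ppm, where none passed. The 5 members that passed without that mouse were Sdf2l1, the nucleotide exchange factor Hyou1 (-0.85, adjusted p = 0.011), the BiP cofactor Dnajb11 (-0.72, adjusted p = 0.00322), and the disulphide isomerases Pdia4 (-0.63, adjusted p = 0.0192) and Pdia6 (-0.61, adjusted p = 0.0153). With all mice the 4 after Sdf2l1 differed by -0.64, -0.50, -0.44 and -0.43 (adjusted p = 0.0862, 0.132, 0.17 and 0.157), and Hyou1 also passed without replicate 2 of 20 ppm (-0.81, adjusted p = 0.0234).

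Creld2, an ER protein strongly induced by unfolded protein, had the widest range of the list. It read 8.65, 11.49, 8.85, 9.01 and 8.34 at 40 ppm, against 11.21, 9.33, 9.55, 10.29 and 10.56 at 20 ppm. Apart from replicate 2, every mouse of 40 ppm lay below every mouse of 20 ppm; the difference was -0.92 ± 0.444 with all mice (adjusted p = 0.355), -1.48 without replicate 2 (adjusted p = 0.077) and -0.67 without replicate 1 of 20 ppm (adjusted p = 0.615). Hspa5, which encodes BiP, the main ER chaperone, read 10.67 to 11.94 at 40 ppm and 10.89 to 11.83 at 20 ppm (-0.27, adjusted p = 0.578), with -0.50 without replicate 2 of 40 ppm and -0.13 without replicate 1 of 20 ppm. P4hb, an abundant disulphide isomerase, was the single member above 0, at 0.03. Over the study the list's median level was 10.05 in air, 10.28 at 1 ppm, 10.37 at 5 ppm, 10.53 at 10 ppm, 10.14 at 20 ppm, 9.74 at 40 ppm and 9.68 at 120 ppm.

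Promoters of Creld2, Pdia6 and Hspa5 are shown because their genes were all highest at 40 ppm in replicate 2 and hold the ER stress response element, CCAAT and CCACG set 9 bases apart, which ATF6 binds with NF-Y. The windows of 300 bases (RefSeq, GRCm38.p6, all on the plus strand) are chr15:88819396-88819695, chr12:17266339-17266638 and chr2:34771840-34772139. Capitals mark both parts of the element, searched on both strands with any 9 bases between them; in Creld2 it lies on the opposite strand and reads CGTGG and ATTGG.
Creld2: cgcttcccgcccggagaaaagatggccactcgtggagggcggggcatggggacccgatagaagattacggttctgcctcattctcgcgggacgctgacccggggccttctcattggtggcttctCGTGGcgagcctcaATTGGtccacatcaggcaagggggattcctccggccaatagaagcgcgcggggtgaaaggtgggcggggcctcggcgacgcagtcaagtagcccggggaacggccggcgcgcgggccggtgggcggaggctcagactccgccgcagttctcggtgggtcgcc
Pdia6: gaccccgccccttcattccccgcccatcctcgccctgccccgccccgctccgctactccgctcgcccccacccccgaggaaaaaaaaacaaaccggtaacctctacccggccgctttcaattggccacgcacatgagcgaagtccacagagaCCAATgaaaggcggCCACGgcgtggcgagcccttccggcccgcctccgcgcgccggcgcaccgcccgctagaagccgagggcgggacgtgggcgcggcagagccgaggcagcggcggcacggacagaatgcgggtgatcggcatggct
Hspa5: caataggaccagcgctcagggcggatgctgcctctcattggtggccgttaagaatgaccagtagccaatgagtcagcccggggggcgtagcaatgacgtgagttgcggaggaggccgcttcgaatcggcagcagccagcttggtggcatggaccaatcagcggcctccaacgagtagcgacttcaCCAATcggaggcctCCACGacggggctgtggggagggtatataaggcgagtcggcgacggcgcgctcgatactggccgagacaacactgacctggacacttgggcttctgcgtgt
The element was in 7 of the 18 matched promoters of the list (Calr, Canx, Creld2, Dnajc3, Hsp90b1, Hspa5 and Pdia6) and in 0.119% of all 32851. The median difference was -0.20 both in the 7 with a match and in the 11 without.

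Cytosolic heat shock proteins were also high in replicate 2 of 40 ppm. The list median was -0.21 with 14 of 15 below 0, and none passed. Of the 15, 1 was lower at an unadjusted p under 0.05 (4.55% of all genes were). Hsph1, a large chaperone of the Hsp110 family, read 7.99, 9.53, 7.98, 8.24 and 8.25 at 40 ppm, against 9.60, 8.39, 8.47, 9.07 and 8.80 at 20 ppm. Replicate 2 of 40 ppm and replicate 1 of 20 ppm stood highest, and the difference was -0.47 with all mice (adjusted p = 0.451), -0.75 without replicate 2 of 40 ppm (adjusted p = 0.169) and -0.28 without replicate 1 of 20 ppm (adjusted p = 0.734). The list median was -0.32 without replicate 2 of 40 ppm and -0.07 without replicate 1 of 20 ppm. Hspa1b, an inducible Hsp70, ranged between 7.09 and 9.52 at 40 ppm and between 6.95 and 10.57 at 20 ppm (-0.86 ± 0.616, adjusted p = 0.554; -1.31 to -0.41 with a mouse left out).

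Genes for the handling of styrene itself did not separate the groups. Of the 14 measured members of styrene metabolism none passed, none had an unadjusted p under 0.05, and their differences lay between -0.10 and 0.14 with a median of 0.01. Cyp2e1 averaged 13.55 ± 0.029 at 40 ppm and 13.48 ± 0.076 at 20 ppm (difference 0.07, adjusted p = 0.612), and Cyp2f2 averaged 12.88 ± 0.062 at 40 ppm and 12.95 ± 0.125 at 20 ppm (difference -0.07, adjusted p = 0.673). Both are close to the top of the scale of these arrays, where the highest value was 14.23. The epoxide hydrolases Ephx1 and Ephx2 differed by 0.03 and 0.09, the glutathione transferases Gstm1, Gstp1, Gstt1 and Gsta4 by 0.03, -0.09, 0.05 and -0.10, and Mgst1 by 0.00. The aldehyde dehydrogenases Aldh2, Aldh1a1 and Aldh3a2 differed by -0.02, 0.14 and 0.12, and the alcohol dehydrogenases Adh1 and Adh4 by -0.02 and -0.06.

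None of the flavin monooxygenases and sulfotransferases or of the targets of the xenobiotic receptors CAR and PXR passed. The flavin monooxygenases and sulfotransferases had a median of 0.27, with 10 of 11 above 0. Of the 11, 4 were higher at an unadjusted p under 0.05 (7.83% of all genes were). Fmo2 read 7.00, 7.03, 7.04, 7.36 and 7.47 at 40 ppm, against 5.46, 7.48, 4.49, 6.72 and 6.42 at 20 ppm. Replicate 2 of 20 ppm lay above all mice of 40 ppm and replicate 3 lay near the 4.24 to 4.69 of the groups at 10 ppm and below; the difference was 1.07 ± 0.342 with all mice (adjusted p = 0.146), 1.41 without replicate 2 of 20 ppm (adjusted p = 0.0471) and 0.66 without replicate 3 of 20 ppm (adjusted p = 0.4). Sult1b1, a sulfotransferase, differed by 0.74 ± 0.207 with all mice (adjusted p = 0.0884), 0.96 without replicate 2 of 20 ppm (adjusted p = 0.0214) and 0.54 without replicate 5 of 20 ppm (adjusted p = 0.154). The CAR and PXR targets had a median of 0.21, with 3 of 19 higher at an unadjusted p under 0.05 (7.83% of all genes were). Among them Cyp2c37 was higher in every mouse of 40 ppm (0.41, adjusted p = 0.215), as were 2.07% of all genes. Cyp2b10 differed by 0.18 ± 0.534 and Cyp3a11 by 0.14 ± 0.213.

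The largest single differences among listed genes did not pass, and in these genes mice of 20 ppm were far apart. Bcl6, a transcriptional repressor with higher expression in male liver, read 5.94, 5.13, 5.81, 4.24 and 4.48 at 40 ppm, against 8.53, 8.01, 7.99, 4.34 and 5.12 at 20 ppm. Replicates 4 and 5 of 20 ppm lay within the range of 40 ppm, and the difference was -1.68 ± 0.717 (SE; 3.19-fold lower, adjusted p = 0.29). Acot3, a peroxisomal acyl-CoA thioesterase, read 10.01, 8.84, 9.49, 9.74 and 9.61 at 40 ppm, against 7.80, 9.37, 4.61, 9.46 and 8.71 at 20 ppm. Its replicate 3 of 20 ppm lay near the mean of air (4.33 ± 0.17), and the difference was 1.55 ± 0.676 (2.93-fold, adjusted p = 0.3), or 0.70 without that mouse. Slc16a5, a monocarboxylate transporter, ranged between 7.17 and 8.14 at 40 ppm and between 4.62 and 7.76 at 20 ppm (1.33 ± 0.563, adjusted p = 0.284), with replicates 1 and 3 of 20 ppm lowest. Cyp7a1, the rate-limiting enzyme of bile acid synthesis, ranged between 7.77 and 9.34 at 40 ppm and between 4.74 and 9.89 at 20 ppm (1.19 ± 0.802, adjusted p = 0.533; 0.50 without replicate 3 of 20 ppm). Cux2, which is female-biased in mouse liver, was the nearest of these to the threshold, at 0.82 ± 0.230 with all mice (adjusted p = 0.0935) and 1.06 without replicate 2 of 20 ppm (adjusted p = 0.021).

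Acute phase proteins, made by hepatocytes in inflammation, had a median of 0.03 with 13 of 23 above 0 and none at an unadjusted p under 0.05. Saa1, serum amyloid A, averaged 12.15 ± 0.59 at 40 ppm and 12.42 ± 0.46 at 20 ppm, and Lcn2, lipocalin 2, averaged 9.24 ± 1.02 at 40 ppm and 9.16 ± 1.07 at 20 ppm (SD, n = 5 each). Lcn2 ranged between 8.10 and 10.82 at 40 ppm and between 7.81 and 10.48 at 20 ppm, so the mice of each group differed more than the groups did. No gene of the 12 cell type lists passed. The nearest was in the exocrine pancreas list, at an adjusted p of 0.0833; that list's mean level was 3.72 to 3.96 at 40 ppm and 3.74 to 4.03 at 20 ppm.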

How the data were processed

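Liver RNA of 35 mice was measured on Affymetrix 3′ expression arrays, 1 per mouse. The deposited values are log2 intensities that the authors made with RMA and Partek, per the submitters' processing notes, which give no version. RMA corrects background, sets the arrays to 1 distribution and summarises each probe set, so probe sets near the floor carry mostly background and very bright ones are compressed. The deposited log2 values ran between 1.74 and 14.23 and were used as they are; of 45141 probe sets 104 controls were left out. Symbols came from GEO's platform annotation: 28898 tested probe sets named 1 gene, 551 several and 15588 none, and genes are named only from the first kind. Each gene's values are those of its brightest probe set over all arrays, unless another is named. The number of arrays limits the precision.

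Group means were fitted to all 35 arrays with limma 3.58.1 (R 4.3.3; lmFit, contrasts.fit, eBayes), with 28 residual degrees of freedom, and p-values were adjusted by Benjamini-Hochberg over 45037 probe sets, with a threshold of 0.05. SEs are limma's moderated ones. The same model gave the contrasts of steps. Array measures were compared by exact permutation tests. The fit was tested on simulated data. Alternatives were other scalings, a filter on dim probe sets, other variance priors, array weights, the 10 arrays alone, the replicate number as a block, the number in the sample title as a covariate, and each mouse left out.

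Named by rule were the 15 largest rises and falls that passed, the 10 smallest p-values, passing members of the lists, all styrene metabolism genes and the top of the step tests. Genes described in the lists, and the probe sets so marked, were named after their values were seen. Members and lists were chosen with earlier results of these data known. Promoters were matched by symbol in a RefSeq table (GRCm38.p6).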

Additional observations from a re-analysis of the deposited data

Results flagged for a closer look

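Among 220 groups of 5 mice tested, those of 107 genes and 3 array measures, 18 held a mouse set apart from the other 4 by Dixon's test. Chance gives about 1 in 20 for a group picked beforehand. Part of the genes was named after their values were seen, ER and heat shock chaperones among them, so the count cannot be set against that rate. Of the 13 at 40 ppm, 11 were replicate 2, and all 5 at 20 ppm were replicate 5, a description of the genes chosen.

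In replicate 2 of 40 ppm, genes of protein folding were high: Creld2 was 11.49 where the rest of the group ran between 8.34 and 9.01, Sdf2l1 was 10.02 (rest 7.69 to 8.13), Hspa5 was 11.94 (rest 10.67 to 10.89), and Manf, a secreted ER stress protein, was 11.34 (rest 9.80 to 10.16). Pdia4 was 10.08 (rest 9.07 to 9.24) and Pdia6 was 10.41 (rest 9.30 to 9.61). Of the cytosolic chaperones, Hsph1 was 9.53 (rest 7.98 to 8.25), Stip1 was 8.36 (rest 7.65 to 7.79) and Hspa4 was 8.66 (rest 8.35 to 8.43). In the same mouse Srebf2, which encodes SREBP2, was low at 6.86 (rest 7.17 to 7.29) and Aldh2 was low at 12.47 (rest 12.57 to 12.61). These genes share 1 array and are not independent of each other.

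In replicate 5 of 20 ppm, Cyp51 was 9.03 (rest 9.68 to 9.72), Sost was 3.25 (rest 3.96 to 4.24), 4930470H14Rik was 2.72 (rest 3.55 to 3.74) and Rapgef3 was 3.64 (rest 3.23 to 3.26), and the GAPDH measure was -0.402 (rest 0.125 to 0.172). Without this mouse Sost differed by -0.91 (adjusted p = 0.00263), 4930470H14Rik by -0.80 (adjusted p = 0.00121) and Rapgef3 by 0.67 (adjusted p = 0.00858). At 40 ppm, Slc22a6 was 3.40 in replicate 4 (rest 2.61 to 2.78) and Stoml3 was 3.34 in replicate 3 (rest 3.56 to 3.64).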

How the results depend on the processing

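All 168 probe sets that passed kept their direction under every alternative in which they were tested (86 of them under the filter on dim probe sets). The filter, the other variance priors, the replicate block, weights by group and the 10 arrays alone leave each difference unchanged. Centring shifts all by less than the smallest of the 168, so direction was fixed under these settings. The 168 were chosen on the same arrays, so their direction under the others is a description. The count that passed was 61 after a second quantile normalization, 22 among probe sets above the median level, 1017 with array weights, 10 with only the 10 arrays compared and 267 with weights by group, the last chosen after seeing the data; with a mouse left out it ran between 30 and 584. The count with a fold of at least 1.5 was 42 after centring, 19 after quantile normalization, 16 with the filter, 187 with array weights, 10 with the 10 arrays alone and 167 with the title number as covariate, and ran between 15 and 176 with a mouse left out. For the step against the one below, 1 passed with the filter, 1 with the replicate block and between 0 and 2 with a mouse left out; for the step against the one above, 2 passed after quantile normalization, 1 with the filter and between 1 and 7 with a mouse left out. The difference in array medians ran between 0.0333 and 0.0523 with a mouse left out, the highest without replicate 5 of 20 ppm (exact permutation test, adjusted p = 0.0238).

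Same-numbered mice of both groups did not deviate together (correlations between -0.083 and 0.106), so the numbers were not taken as pairs; with the replicate block 176 probe sets passed, 145 of them shared. Numbers in the sample titles rise with concentration, and 1047 probe sets (2.32%) followed their order within groups, fitted as the replicate number. With the title number itself as covariate 176 passed, 15 of them shared. Dbp then turned to -3.35 (adjusted p = 0.0482) and passed as lower, as did Nr1d2 (-1.69), and 5 cholesterol genes passed as higher. List medians were then 0.88 for cholesterol, 0.01 for the PER arm, -0.04 for ER chaperones and -0.01 for heat shock proteins. The cause was not tested. Of the 58 genes, 6 passed in all 10 fits with a mouse left out: Dazl, Gm7854, Mtmr11, Slc5a11, Wdr27 and the immunoglobulin kappa segment. These fits still took the spread from the other groups as well. In limma with only the 10 arrays compared, Dazl alone of the 6 passed (adjusted p = 0.0162), the others lying between 0.0549 and 0.0968. With the title number as covariate none of the 6 passed (limma, adjusted p between 0.0563 and 0.177). The dim range and 5 mice a group limit what can be told.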
